A study of Mus musculus with 6 samples.

Results

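The genes described here are 44 genes of the cell cycle and DNA replication. They were taken as the rows of the deposited expression table whose mouse symbol (GENCODE M21, built on GRCm38) was on a list of cell cycle genes. The rule itself used no measured value, but the list was drawn up with earlier results of these data known. Of the 22442 genes in the table, the 44 comprised 17 genes of DNA replication and S phase, 23 genes of G2 and mitosis, the G1 cyclin Ccnd1 and 3 inhibitors of cyclin-dependent kinases (CDKs). All 44 had a mean of at least 0.5 FPKM (fragments per length of gene and per total of the library) over the 6 libraries, the level that 11723 genes reached and at which genes were tested.

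RNA was sequenced from mTECs, murine renal tubular epithelial cells, in 3 libraries labelled LPS and 3 labelled LPSKD. Cells of the LPS group had been transfected with a negative control and cells of the LPSKD group with an RNA directed against Stat3, a transcription factor of cytokine signalling, and both groups were then exposed to lipopolysaccharide (LPS), a component of the bacterial outer membrane, at 20 μg/ml for 24 h. The labels speak of magnetically sorted cells and an siRNA, whereas the study's methods describe an immortalised line, shRNA as well as siRNA, and a night in low serum before LPS. Since both groups carried LPS, the comparison is between the transfections and not with resting cells. The libraries held between 24084827 and 25422171 fragments, and the labels do not say whether replicates were separate cultures, so that p-values measure only the spread between these libraries.

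Stat3 itself did not separate the groups. Its level was 34.6, 31.4 and 35.2 FPKM in the libraries labelled LPS and 30.8, 35.2 and 34.3 FPKM in those labelled LPSKD, with a log2 difference of -0.014 and an adjusted p of 0.944 in the limma fit. For that reason every direction below refers to the labels, LPSKD against LPS, and not to a loss of Stat3 mRNA measured in these libraries. The study reports that Stat3 was knocked down in mTECs, by PCR and western blot, without stating whether this covers the sequenced cultures. Of 15 tubular epithelial markers, 9 were at or above a mean of 0.5 FPKM, with the keratin Krt8 at 1205 and the adhesion protein Epcam at 307 FPKM on average in the LPS libraries. Slc34a1, Umod and Aqp2, which mark the proximal tubule, the thick ascending limb and the collecting duct, were listed at 0 in all 6 libraries. The summed level of 8 immune markers lay between 36.9 and 39.4 FPKM in the LPS libraries and between 29.0 and 42.4 FPKM in the LPSKD libraries, that of 6 fibroblast markers between 28.6 and 36.9 against 19.2 and 36.7 FPKM, and that of 5 endothelial markers between 2.67 and 5.21 against 3.12 and 5.32 FPKM. These ranges overlapped between the groups, and the lowest adjusted p among the markers of other cell types that were tested was 0.197, for Cd68. The summed level of the tubular markers was 3236 to 3314 FPKM in the LPS libraries and 3196 to 3229 FPKM in the LPSKD libraries. Of the tubular markers, Pax2, Pax8, Cdh16 and Aqp1 were higher and Krt18 lower in LPSKD past an adjusted p of 0.05, and their part in the values below was not tested.

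Cells copy their genome in S phase and separate the copies in mitosis. The MCM helicase is loaded on origins in G1, and E2F transcription factors raise the genes of DNA synthesis as S phase begins. Later, cyclin B with Cdk1 drives entry into mitosis, and the anaphase-promoting complex (APC/C), a ubiquitin ligase that works with Cdc20 and the E2 enzyme Ube2c, destroys cyclin B to end it. Many mitotic genes carry a CHR element (cell cycle genes homology region) and CCAAT boxes in their promoters, the first bound by the DREAM and related MuvB complexes and the second by NF-Y, whereas E2F sites mark many S-phase genes. In renal tubules, which divide little at rest and resume division after injury, these genes are read as a record of proliferation, although p21, the product of Cdkn1a, can hold damaged cells in arrest.

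The promoter stretches of 4 members are shown. Ube2c was taken as the member that passed the test below. Cdc20, Top2a and Mcm6 were taken because their stretches hold letters by which these classes are usually told apart. The stretches were read from RefSeq (GRCm38.p6), cover at most the 250 bases before the annotated start and leave out annotated exon bases. Each is written 5′ to 3′ along the strand of the gene, and capitals mark the CHR (TTTGAA), the CCAAT box and the E2F site (TTTCCCGC, TTTGGCGC, TTTCGCGC or TTTGCCGC), each on either strand. Ube2c lies at chr2:164769679-164769897 on the plus strand, Cdc20 at chr4:118437353-118437593, Top2a at chr11:99024190-99024439 and Mcm6 at chr1:128359706-128359955, the last 3 on the minus strand.
Ube2c: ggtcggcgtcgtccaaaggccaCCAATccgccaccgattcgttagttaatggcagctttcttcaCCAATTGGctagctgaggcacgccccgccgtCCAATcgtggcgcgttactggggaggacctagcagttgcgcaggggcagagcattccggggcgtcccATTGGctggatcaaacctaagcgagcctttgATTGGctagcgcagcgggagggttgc
Cdc20: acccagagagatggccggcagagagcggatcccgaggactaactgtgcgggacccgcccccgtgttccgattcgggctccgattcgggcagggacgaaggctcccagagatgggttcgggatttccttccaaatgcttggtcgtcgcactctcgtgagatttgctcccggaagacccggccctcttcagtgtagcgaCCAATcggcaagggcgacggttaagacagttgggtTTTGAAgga
Top2a: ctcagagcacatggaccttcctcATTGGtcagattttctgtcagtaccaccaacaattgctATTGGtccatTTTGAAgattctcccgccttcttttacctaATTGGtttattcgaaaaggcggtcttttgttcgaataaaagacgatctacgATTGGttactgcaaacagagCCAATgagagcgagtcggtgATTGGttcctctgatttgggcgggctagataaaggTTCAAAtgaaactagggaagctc
Mcm6: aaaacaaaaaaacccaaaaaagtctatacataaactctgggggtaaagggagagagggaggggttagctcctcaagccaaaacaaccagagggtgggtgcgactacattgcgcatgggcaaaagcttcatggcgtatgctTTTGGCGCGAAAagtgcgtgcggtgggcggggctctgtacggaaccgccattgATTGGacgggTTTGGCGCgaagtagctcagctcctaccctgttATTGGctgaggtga
The stretch of Ube2c held 6 CCAAT boxes, of which a pair overlap in the run CCAATTGG. That of Cdc20 held 1 CHR and 1 CCAAT box, that of Top2a 2 CHRs and 6 CCAAT boxes, and that of Mcm6 3 E2F sites, of which a pair overlap, and 2 CCAAT boxes. The match to the CHR of Ube2c lay in exon bases that are not shown.

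In windows of 300 bases, 250 before and 50 after the start, 36 of the 44 members had at least 1 entry. A CHR was in 14 of 19 windows of mitotic genes (73.7%) and in 2 of 15 windows of S-phase genes (13.3%), against 17.9% of all 32851 windows. E2F letters showed the opposite order, with 6 of 15 S-phase windows (40%) and 1 of 19 mitotic windows (5.26%), that of Cdk1, against 2.26% of all windows. CCAAT boxes were in 17 of 19 mitotic windows (89.5%) and 10 of 15 S-phase windows (66.7%), against 37.4% of all windows. These shares describe letters in a window and carry no test. The 6 S-phase genes with E2F letters were Cdc6, Cdt1, Mcm3, Mcm5, Mcm6 and Mcm7. None of the 3 CDK inhibitors held a CHR or an E2F site in its windows.

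All 44 genes were expressed well above the filter in both groups. Their median level over the 6 libraries was 72.3 FPKM, against 21.5 FPKM over all tested genes, and between 162 fragments (Cdkn2c) and 22055 fragments (Ccnd1) lay behind the values of single libraries. The highest level belonged to Ccnd1, which couples growth signals to the G1 kinases, at 935 ± 61.0 FPKM (SD, n = 3) in the LPS libraries. Cdkn1a, Pcna and Ube2c followed with means between 403 and 516 FPKM in either group. The proliferation marker Mki67, whose protein coats mitotic chromosomes, stood at 66.5 ± 2.57 FPKM in the LPS libraries and 69.6 ± 1.39 FPKM in the LPSKD libraries (SD, n = 3). Transcripts of S phase and of mitosis were thus present in either group, and in bulk RNA fewer cycling cells and less RNA per cycling cell cannot be told apart. The median coefficient of variation between replicates was 3.66% in the LPS libraries and 2.73% in the LPSKD libraries, against 1.51% from counting alone.

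**Figure D1:**
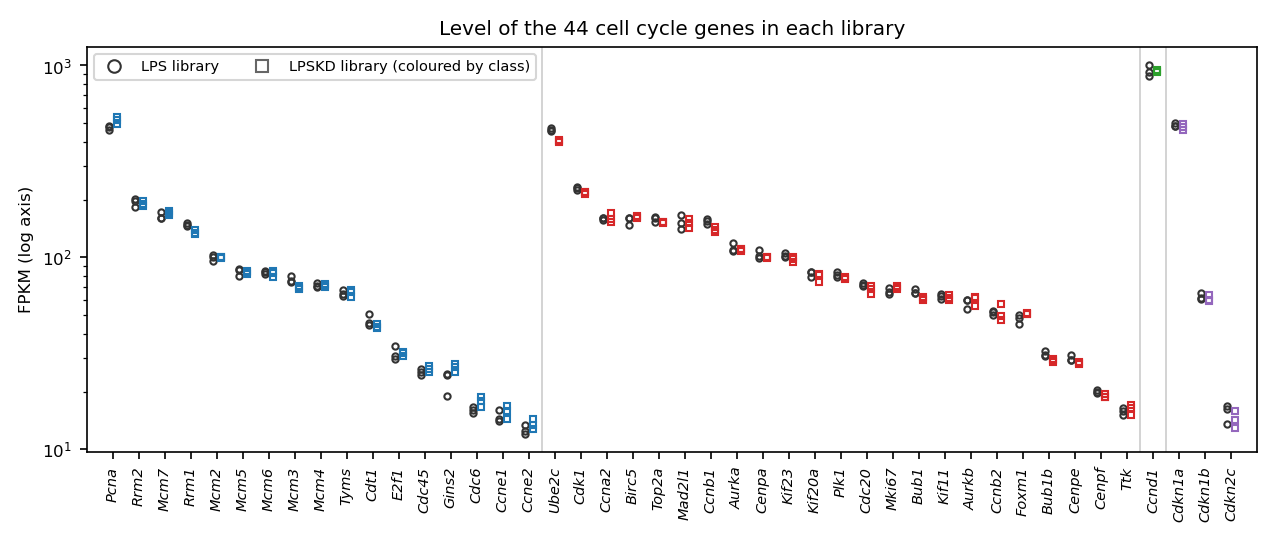
Level of each of the 44 genes in each library (y axis, FPKM on a log scale), with genes along the x axis in order of level within the classes S phase, mitosis, G1 cyclin and CDK inhibitor. Circles are LPS libraries and squares LPSKD libraries (n = 3 each); the symbols of the groups lie close together for every gene, from Ccnd1 at the top to Ccne2, Ccne1 and Cdkn2c at the bottom.

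Between the groups the genes moved little. Of the 44 members, 1 passed the limma test at an adjusted p of 0.05, the mitotic gene Ube2c, which was lower in LPSKD. Over all tested genes the share that passed was 3.23%, and 1.66% passed in the lower direction. No member was higher past the threshold. At an unadjusted p under 0.05, 5 members were lower (11.4%) and 2 higher (4.55%), beside 8.91% and 8.65% of all tested genes, so that these counts were near the background. With limma's voom, run on the fragment numbers behind the FPKM, 3 members were called lower and 0 higher, beside 5.07% of genes in either direction and 2.69% in the lower one. The log2 differences ran from -0.20 to 0.24 with a median of -0.024, beside a median of -0.008 over all tested genes. An absolute log2 difference under 0.1 was found for 33 of 44 members (75%), for 54.6% of all tested genes, and for 66.9% of the 7311 tested genes whose mean level was at or above that of the lowest member. For 39 of 44 members the 95% interval of the difference stayed within 20% of no change. The same held for 6268 of the 11723 tested genes and for 5640 of those 7311 genes.

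**Figure D2:**
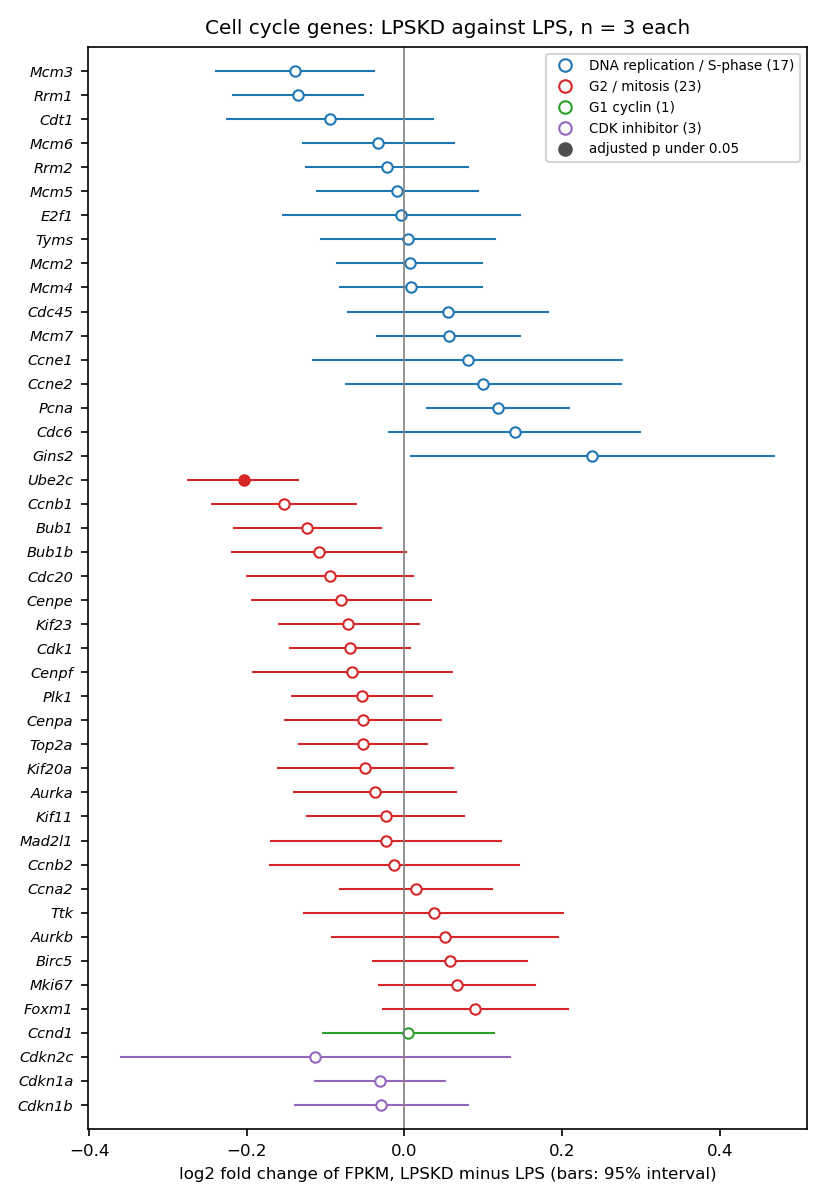
Log2 difference of FPKM, LPSKD minus LPS, for each of the 44 genes (x axis) with its 95% interval from limma as a bar, coloured by class and ordered within class (n = 3 per group). The filled point is Ube2c, the single member with an adjusted p under 0.05; S-phase genes lie on both sides of 0, and 17 of 23 mitotic genes lie below it.

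Among the 17 genes of DNA replication and S phase, none passed the test in limma. At an unadjusted p under 0.05, 2 were lower and 2 higher (11.8% each), near the 8.91% and 8.65% of all tested genes, and voom called 1, Rrm1, against 5.07% of all genes. Of the 17, 7 had a lower and 10 a higher mean in LPSKD, with a median log2 difference of 0.007, which was -0.004 under quantile normalization and 0.029 without LPS replicate 3. The groups did not overlap for 2 genes that were lower in LPSKD (11.8%), Mcm3 and Rrm1, and for 2 that were higher (11.8%), Pcna and Gins2. The corresponding shares of all tested genes were 13.2% lower and 10.6% higher, so that the S-phase genes stood near the background in both directions.

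The 6 subunits of the MCM helicase, the ring that unwinds DNA ahead of the fork, were split evenly, with 3 lower and 3 higher and differences from -0.14 to 0.056 on the log2 scale. Mcm3 was at the lower end. It stood at 80.5, 74.3 and 75.6 FPKM in the LPS libraries and at 68.6, 71.0 and 69.4 FPKM in the LPSKD libraries, so that every LPSKD library was below every LPS library, with a log2 difference of -0.14 (SE 0.044) and an adjusted p of 0.149. Mcm7, the MCM subunit with the highest level per length, had 171.5, 161 and 159.9 FPKM against 166.7, 174.5 and 170.9 FPKM, and its groups overlapped (log2 difference 0.056, adjusted p 0.517). Of its 31-base stretches of open reading frame, 49.4% also occur in a transcript of Gm5487. The other 4 subunits lay within 0.033 of 0 on the log2 scale.

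The 4 genes that license and fire origins differed among themselves. Gins2, a subunit of the GINS complex that activates the helicase, had the largest difference of all 44 genes in either direction, with 19.0, 24.6 and 24.4 FPKM in the LPS libraries and 27.9, 26.8 and 25.2 FPKM in the LPSKD libraries. The LPSKD libraries lay above all LPS libraries, but 1 LPS library was well below the other two, and the log2 difference of 0.24 had an SE of 0.10 and an adjusted p of 0.269. Without LPS replicate 1 the log2 difference was 0.12. Cdc6, which loads the MCM ring on origins, had 16.0, 15.4 and 16.7 FPKM against 16.6, 17.8 and 18.7 FPKM, with overlapping groups, a log2 difference of 0.14 and an adjusted p of 0.348. Cdt1, its partner in loading, had a log2 difference of -0.095 and Cdc45, part of the active helicase, one of 0.055, with adjusted p-values of 0.439 and 0.672.

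Pcna, the sliding clamp of DNA polymerases, was the S-phase gene with the highest level. It stood at 463, 485 and 477 FPKM in the LPS libraries and at 520.0, 536 and 493 FPKM in the LPSKD libraries, so the groups did not overlap. The difference was 8.62% (95% interval 2.05% to 15.6%) with an adjusted p of 0.167. Of the 31-base stretches in its open reading frames, 75% also occur in annotated transcripts of Pcna-ps2 or Gm29809, so fragments of these copies could have been counted with it.

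Genes of nucleotide supply were Rrm1, Rrm2 and Tyms. Rrm1, the large subunit of ribonucleotide reductase, which makes deoxyribonucleotides, had 144.9, 150.5 and 148.0 FPKM in the LPS libraries and 133, 139 and 132 FPKM in the LPSKD libraries. All LPSKD libraries were below all LPS libraries, with a difference of -8.91% (95% interval -13.9% to -3.58%), and the adjusted p was 0.0969. Rrm1 passed the threshold under voom, with an adjusted p of 0.0378, and under quantile normalization, with 0.0337, and over all alternatives the adjusted p ran from 0.0337 to 0.278. Its partner Rrm2, the small subunit, had 183, 202 and 197 FPKM against 190.4, 196.5 and 186 FPKM, which overlapped, and a log2 difference of -0.022. Tyms, thymidylate synthase, differed by 0.004 on the log2 scale. E2f1 and the G1/S cyclins Ccne1 and Ccne2 had log2 differences of -0.004, 0.080 and 0.10, with overlapping groups and adjusted p-values of at least 0.552.

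The 23 genes of G2 and mitosis lay mostly below 0. In LPSKD, 17 had a lower and 6 a higher mean, beside 6154 lower and 5569 higher of all tested genes. The genes share the same 6 libraries and are not separate observations. The median log2 difference of the class was -0.053, or -3.6%, and it was -0.035 without LPS replicate 3. The groups did not overlap for 9 genes that were lower in LPSKD (39.1%), beside 13.2% of all tested genes, and for 1 that was higher (4.35%), Foxm1, beside 10.6%. Of the 23, 1 passed the adjusted threshold. At an unadjusted p under 0.05, 3 were lower (13%) and none higher, beside 8.91% and 8.65% of all tested genes, and voom called 2, beside 5.07%. The 95% interval stayed within 20% of no change for 23 of 23, beside 5640 of the 7311 tested genes at or above the level of the lowest member.

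Ube2c, the E2 enzyme that hands ubiquitin to substrates of the APC/C, fell. Its level was 460.5, 458 and 474 FPKM in the LPS libraries and 403, 407 and 399 FPKM in the LPSKD libraries. All 3 LPSKD values lay below all 3 LPS values, with a gap larger than the range within either group. The means were 464 ± 8.68 and 403 ± 3.99 FPKM (SD, n = 3), a difference of -13.2% (95% interval -17.3% to -8.91%), with a log2 difference of -0.20 (SE 0.030) and an adjusted p of 0.0099 by limma. Over the 16 alternatives the log2 difference ran from -0.23 to -0.19 and Ube2c passed in 12 of them. It did not pass without the variance trend (adjusted p 0.0862), nor without LPS replicate 3 (0.0709), LPSKD replicate 1 (0.0554) or LPSKD replicate 3 (0.0642). The gene lies at chr2:164769898-164778822 on the plus strand of GRCm38, and 20% of the 31-base stretches of its open reading frames also occur in transcripts of 4 other annotated genes, its neighbour Tnnc2 among them.

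Cdc20, the coactivator that brings substrates to the APC/C, had 73.9, 72.2 and 70.8 FPKM in the LPS libraries and 70.7, 68.2 and 64.4 FPKM in the LPSKD libraries. The groups were adjacent and did not overlap, with a log2 difference of -0.095 and an adjusted p of 0.336, and 32.7% of its stretches are shared with annotated copies. Ccnb1, the cyclin that Cdc20 marks for destruction, had 149.7, 155 and 159.0 FPKM against 135, 144 and 138 FPKM. Its LPSKD libraries were all below its LPS libraries, with a difference of -10.1% (95% interval -15.6% to -4.21%) and an adjusted p of 0.090. Ccnb1 passed under voom (0.0458) and quantile normalization (0.0352), and over all alternatives its adjusted p ran from 0.0352 to 0.276. Of its 31-base stretches, 87.6% also occur in transcripts of 6 other annotated genes, Ccnb1-ps among them. Fragments of those genes could have been counted with Ccnb1, which was not examined. Its kinase Cdk1 had 223, 233 and 229 FPKM against 220.1, 219.5 and 213 FPKM, which did not overlap (log2 difference -0.069, adjusted p 0.328). The other B-type and A-type cyclins did not share this order. Ccnb2 differed by -0.013 and Ccna2, which acts from S phase to early mitosis, by 0.014 on the log2 scale, with overlapping groups, although Ccna2 had the third highest level of the mitotic class.

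The spindle checkpoint, which holds anaphase until every chromosome is attached, was represented by 4 genes. Bub1, a checkpoint kinase of the kinetochore, had 65.2, 68.7 and 65.6 FPKM in the LPS libraries and 60.3, 62.0 and 60.8 FPKM in the LPSKD libraries, without overlap, with a log2 difference of -0.12 (SE 0.040) and an adjusted p of 0.167. Bub1b, its relative in the checkpoint complex, had 31.1, 30.8 and 32.4 against 29.5, 29.3 and 28.6 FPKM, also without overlap (log2 difference -0.11, adjusted p 0.293). For the other two, Mad2l1 and the kinase Ttk, the groups overlapped, with log2 differences of -0.023 and 0.037.

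The remaining mitotic genes gave small differences. The 3 centromere genes Cenpa, Cenpe and Cenpf, which build the platform for spindle attachment, had log2 differences from -0.080 to -0.053, and the groups of Cenpe and Cenpf did not overlap. The 3 kinesins Kif11, Kif20a and Kif23, motors of the spindle and of cytokinesis, had log2 differences from -0.071 to -0.024, and the groups of Kif23 did not overlap. All 6 had a lower mean in LPSKD, but none had an unadjusted p under 0.05 in limma or passed in voom. The kinases Plk1, Aurka and Aurkb, which time mitotic entry, spindle assembly and chromosome alignment, ran from -0.054 to 0.051 with overlapping groups. Topoisomerase Top2a, which untangles sister chromosomes, differed by -0.053, while Birc5, a subunit of the Aurora B complex, and Mki67 differed by 0.058 and 0.067. Foxm1, a transcription factor that activates many mitotic genes, was at 50.3, 44.9 and 48.4 FPKM in the LPS libraries and at 50.6, 50.7 and 51.4 FPKM in the LPSKD libraries. Its groups were adjacent without overlap, in the direction opposite to most mitotic genes (log2 difference 0.090, adjusted p 0.411).

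**Figure D3:**
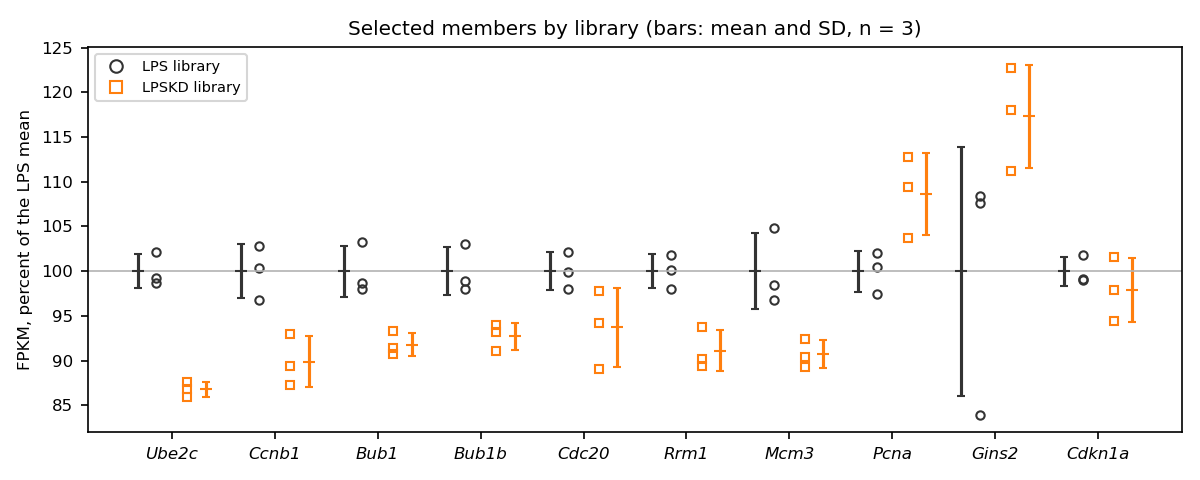
FPKM of 10 of the genes in each library, as percent of the mean of the LPS libraries (y axis), with the mean and SD of each group beside the points (n = 3 per group). All LPSKD libraries of Ube2c lie below its LPS libraries, with group means of 464 and 403 FPKM, those of Pcna and Gins2 lie above, and those of Cdkn1a overlap.

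The differences were also set beside the motif content. Of the 14 mitotic genes with a CHR in the window, 12 had a lower mean in LPSKD, with a median log2 difference of -0.053. Of the 5 without one, 4 had a lower mean, with a median of -0.080, Ccnb1 and Bub1 among them. For the S-phase genes, the 6 with E2F letters had a median of -0.021 and the 8 without a median of 0.005. These groups are small and were not tested.

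The classes were also compared as a whole. In each library the mean log2 level of a class was expressed relative to its mean over the 6 libraries. For the S-phase genes this gave -0.024, -0.016 and 0.008 in the LPS libraries and 0.008, 0.024 and 0.001 in the LPSKD libraries, which overlapped. The mitotic genes gave 0.001, 0.021 and 0.041 in the LPS libraries and -0.023, -0.012 and -0.027 in the LPSKD libraries, without overlap. The group means of the mitotic genes were -0.042 apart. Such a separation was not particular to this class. It was also found for the further p53 targets (-0.048) and the further cycle regulators (0.070) described below. Even the median of all tested genes did not overlap between the groups (-0.006). The S-phase mean minus the mitotic mean was -0.025, -0.037 and -0.033 in the LPS libraries and 0.031, 0.036 and 0.028 in the LPSKD libraries. The groups did not overlap, with SDs of 0.006 in LPS and 0.004 in LPSKD on the log2 scale. Here 0 is the mean of the 6 libraries, so the signs do not say which class was expressed more. The groups were 0.064 apart, so that S-phase transcripts were 4.5% higher relative to mitotic transcripts in LPSKD. No p is given for this score, because the genes were chosen with results of these data known. The difference of the class medians, 0.059, ran from 0.057 to 0.094 when each library was left out in turn, the highest value being that without LPS replicate 1.

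Of the genes of the same processes that are not among the 44, 52 further replication genes and 60 further mitotic genes were tested. Of the replication genes, 29 were lower and 23 higher in LPSKD with a median log2 difference of -0.015, which was 0.004 without LPS replicate 2, and the groups did not overlap for 6 lower and 6 higher genes (11.5% each). Of the mitotic genes, 50 were lower and 10 higher, beside 6154 and 5569 of all tested genes, with a median of -0.084. The groups did not overlap for 23 lower (38.3%) and 2 higher (3.33%) mitotic genes, beside 13.2% and 10.6% of all tested genes. None of either list passed the limma test. At an unadjusted p under 0.05 there were 5 lower (9.62%) and 6 higher (11.5%) replication genes and 19 lower (31.7%) and 1 higher (1.67%) mitotic genes, beside 8.91% and 8.65% of all tested genes. In each list voom called 1 gene, beside 5.07% of all genes. Without LPS replicate 1 limma called 1 mitotic gene, beside 356 over all genes in that fit. The mean of the further replication genes minus that of the further mitotic genes was -0.021, -0.037 and -0.046 in the LPS libraries and 0.033, 0.046 and 0.025 in the LPSKD libraries, a difference of 0.069 on the log2 scale. The group means were -0.004 apart for the further replication genes and -0.073 apart for the further mitotic genes. For the members they were 0.022 apart in S phase and -0.042 apart in mitosis. The slightly higher mean of the S-phase members in LPSKD was thus not found for the further replication genes. This second contrast has the sign and the order of size of the first, with other genes. It comes from the same 6 libraries, and its lists were also drawn up with earlier results of these data known. It is therefore not separate support for the first contrast. In windows of these lists, a CHR was in 62.5% of further mitotic and 16.7% of further replication windows, and E2F letters in 8.93% and 27.8%.

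**Figure D4:**
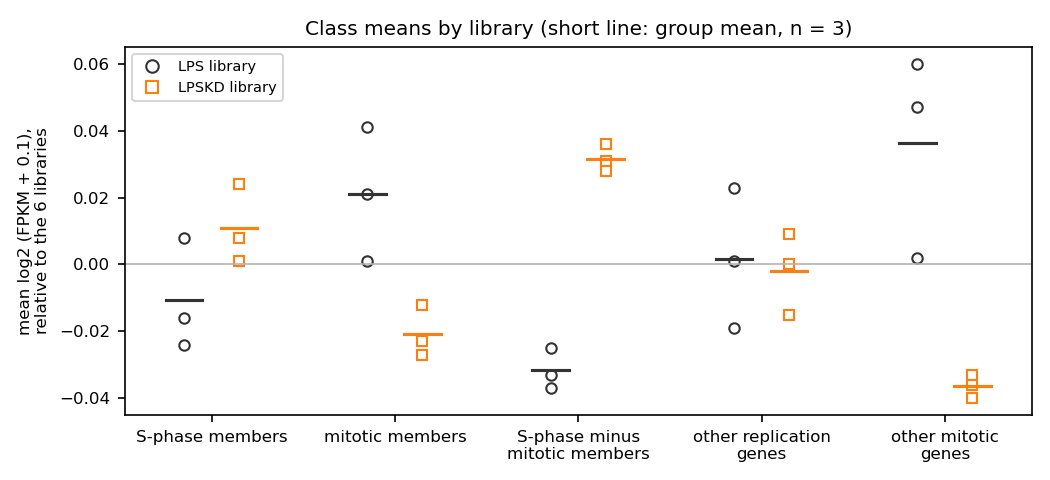
Mean log2 (FPKM + 0.1) of each gene class in each library, relative to the mean of the 6 libraries (y axis), for the S-phase and mitotic members, their difference, and the further replication and mitotic genes. Circles are LPS and squares LPSKD libraries, and short lines are group means (n = 3); the difference of the classes lies between -0.037 and -0.025 in LPS and between 0.028 and 0.036 in LPSKD.

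The 3 inhibitors, the brakes of the cycle, all had a slightly lower mean in LPSKD with overlapping groups, and 0 of them had an unadjusted p under 0.05 in limma or passed in voom. Cdkn1a, the p53 target that encodes the CDK inhibitor p21, stood at 499.5, 486 and 486 FPKM in the LPS libraries and at 463, 498 and 480.0 FPKM in the LPSKD libraries. The groups overlapped, with a log2 difference of -0.031 and an adjusted p of 0.723, and the 95% interval ran from -7.56% to 3.65%. Cdkn1b, which encodes p27, had 60.9, 65.0 and 61.3 against 60.2, 59.1 and 63.9 FPKM and a log2 difference of -0.030. Cdkn2c, which encodes the Cdk4 and Cdk6 inhibitor p18, had the fewest fragments, 162 to 207 per library. Its 13.5, 16.3 and 16.8 FPKM against 12.9, 14.3 and 15.8 FPKM overlapped, and its 95% interval, -22.1% to 9.71%, was among the widest. Ccnd1, on the accelerating side, had 1001, 882 and 921 FPKM in the LPS libraries and 951.5, 936 and 923 FPKM in the LPSKD libraries, with a log2 difference of 0.005, which was -0.049 under quantile normalization.

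A list of 32 further cycle regulators, such as E2F factors, pocket proteins and CDKs, gave no call in limma or voom. It gave 1 call in limma without LPS replicate 1, beside 356 over all genes in that fit. At an unadjusted p under 0.05, 1 was lower (3.12%) and 3 higher (9.38%), beside 8.91% and 8.65% of all tested genes. The median log2 difference was 0.045, and 0.027 without LPS replicate 1, 0.010 without LPS replicate 2, 0.022 without LPSKD replicate 1 and 0.021 without LPSKD replicate 3. Of 22 further p53 targets, 1 passed, beside 3.23% of all tested genes. Of the 22, 15 were lower and 7 higher, beside 6154 and 5569 of all tested genes, and the median was -0.033. Without LPS replicate 1 the median was -0.053 and 2 passed, beside 356 over all genes in that fit. Without LPSKD replicate 2 the median was -0.022. At an unadjusted p under 0.05, 5 of them were lower (22.7%) and none higher, beside 8.91% and 8.65%, and voom called 3, beside 5.07%. The gene that passed was Mdm2, which encodes the ubiquitin ligase that degrades p53. Mdm2 fell from 265.5, 259 and 258 FPKM in the LPS libraries to 205, 196 and 189 FPKM in the LPSKD libraries, without overlap, with a difference of -24.5% (95% interval -29.1% to -19.7%) and an adjusted p of 0.00128 by limma, and it passed in all 16 alternatives. Cdkn1a, another p53 target, had a log2 difference of -0.031. Whether p53 activity differed between the groups was not tested.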

How the data were processed

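Poly(A) RNA of 6 libraries of mTECs, 3 labelled LPS and 3 labelled LPSKD, had been sequenced as paired ends, and groups were taken from the sample labels. The authors deposited 1 table of FPKM values, 1 per gene and library, without pooling. The submitters' processing notes name HISAT2 2.0, StringTie 1.3.0 and Bowtie 0.12.2 and the builds mm8 and GRCh38.p13, without saying which made the table. Its identifiers are mouse Ensembl genes, and 22399 of 22442 had a GENCODE M21 symbol. To obtain depth, FPKM was multiplied by library total and merged coding length, allowing 10 extra bases. For 97.8% of the 16837 genes above 0 and all 44 members the products were whole fragments within 0.02, against 32.8% and 0 with totals raised by 0.1%.

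Tests used limma 3.58.1 in R 4.3.3 (lmFit and eBayes, with trend) after adding 0.1 to FPKM and taking log2, which understates changes of low genes. A gene needed a mean of 0.5 FPKM, and p-values were adjusted by Benjamini-Hochberg over 11723 genes (threshold 0.05, no covariate). Alternatives were pseudocounts of 1 and 0.01, filters at 1 and 0.1 and none, quantile normalization, median centring, no variance trend, a replicate block, voom on recovered fragments, and omission of each library. The fit was tested on simulated data, in which the changes put in were larger than that of any member. It therefore does not show whether differences of the members' size would be found. Members and lists were chosen with earlier results of these data known. Named genes were those past the threshold, the 3 largest differences and 3 highest levels in the S-phase and mitotic classes, Ccnd1, the CDK inhibitors, Stat3, genes of further lists that passed without overlap, and members in counts of 5 or fewer. Mcm2, Mcm4, Mcm5, Mcm6, Mki67, Top2a, Birc5, the genes listed with promoter motifs and single markers were named after their values were seen. Promoter windows came from RefSeq (GRCm38.p6). Stretches of 31 bases from the longest open reading frames were searched in all GENCODE M21 transcripts on both strands, and 22 of 44 members shared at least 1 with another gene, 10 of them at least 20%. Tables used Python 3.11.15 (numpy 2.4.6, pandas 2.3.3) and figures matplotlib 3.10.9.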

Additional observations from a re-analysis of the deposited data

How the results depend on the processing

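The count of called genes over the whole table, 379 of 11723, was 140 without the variance trend, 582 of 11486 with voom and 361 with quantile normalization. It was 213 with the replicate block and between 158 and 356 when each library was left out. The replicate numbers did not pair the libraries (correlations of deviations -0.016, -0.004 and -0.043), and Ube2c passed under the block with an adjusted p of 0.0454. Of the 44 members, 1 was called; the count was 0 without the trend, 3 with voom and 3 with quantile normalization, and between 0 and 1 with a library left out, being 0 without LPS replicate 3, LPSKD replicate 1 or LPSKD replicate 3. The S-phase median ran from 0.003 to 0.029 and the mitotic median from -0.078 to -0.035 over these omissions, the difference of the medians from 0.057 to 0.094, with the upper end without LPS replicate 1. The cause of these shifts was not tested. The direction of 32 members was the same in all 16 alternatives and changed in at least 1 for 12, of which none had a difference above 0.038 in size. The signs that changed were E2f1 (0.002 with median centring) and, with quantile normalization, Mcm2 (-0.018), Mcm4 (-0.005), Tyms (-0.004), Ccna2 (-0.017) and Ccnd1 (-0.049). With a library left out, the log2 differences ran from -0.025 to 0.031 for Mcm2, -0.007 to 0.029 for Mcm4, -0.047 to 0.016 for Mcm5, -0.064 to 0.008 for Rrm2, -0.025 to 0.038 for Tyms, -0.049 to 0.060 for E2f1, -0.092 to 0.040 for Ccnb2, -0.025 to 0.046 for Ccna2, -0.064 to 0.006 for Aurka, -0.079 to 0.037 for Mad2l1, -0.004 to 0.085 for Ttk, -0.036 to 0.056 for Ccnd1 and -0.064 to 0.044 for Stat3. With 3 libraries a group, differences of a few percent were not detectable for most members, and larger ones could also be missed. In limma, Gins2 at 18.0% (adjusted p 0.269) and Ccnb1 at -10.1% (adjusted p 0.090) did not pass.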
